A study of Mus musculus with 4 samples.

Results

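Chemokines and their receptors were examined in 4 livers of wild-type (WT) mice. All had ACLF, acute-on-chronic liver failure, in which acute injury falls on a chronically diseased liver. The mice of livers baicalein 1 and 2 had received baicalein, a flavone of skullcap root, and those of livers saline 1 and 2 had received saline. All 4 livers share the WT genotype and the ACLF state, and no liver without ACLF was analysed here. The sources used here give no dose, time of collection, age or sex. Nor do they state that the livers are of separate animals. The p-values therefore reflect only how much these 4 samples vary, and that variation may be technical. The members are the genes whose symbol begins with Ccl, Ccr, Cxcl, Cxcr, Xcl, Xcr or Ackr and a number, together with Cx3cl1 and Cx3cr1. They number 62 of the 21959 genes in the deposited table, 39 ligands and 23 receptors.

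Chemokines are small secreted proteins that bind to matrix sugars and form gradients along which leukocytes move. They are grouped as CXC, CC, XC or CX3C by the spacing of conserved cysteines. They act through G protein-coupled receptors on the moving cell, while the atypical receptors (Ackr genes) take ligands up without G protein signalling. In injured liver, Kupffer cells, endothelium, stellate cells and hepatocytes are known sources of ligands that draw in neutrophils, monocytes and lymphocytes.

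The livers differed in ways other than the treatment label. Deposited counts summed to between 13976440 and 18731616 per liver. The Y-linked genes Ddx3y, Eif2s3y, Kdm5d and Uty together had 2 and 1 counts in baicalein livers 1 and 2, against 820 and 836 counts in saline livers 1 and 2, so treatment and this difference cannot be told apart in any comparison here. The 7 skeletal muscle markers summed to 0.619 and 1470.5 CPM with baicalein and 4854 and 1.24 CPM with saline. CPM is the count scaled for depth by the normalised library size. Muscle transcripts were thus high in 1 liver of each group, baicalein 2 and saline 1. The 5 bile duct markers summed to 9.08 and 105 CPM with baicalein and 20.5 and 14.95 CPM with saline, with baicalein 2 alone high. Alb, the albumin gene that marks hepatocytes, was abundant in every liver, at 87778 and 74260.5 CPM with baicalein and 55863 and 53156 CPM with saline. The 5 hepatocyte markers did not move together. In the test described below Alb was called higher and Cyp3a11 lower (log2 fold change -1.31, edgeR adjusted p = 0.000252), and 3 did not pass.

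Promoter sequences of 4 CXC ligands are shown because Cxcl1 and Cxcl13 passed the test described below while Cxcl9 and Cxcl10, which lie on the same chromosome and are known targets of interferon signalling, did not. Each is the 250 bases before the start of the gene in RefSeq (GRCm38.p6), written 5′ to 3′ on the strand of the gene. The windows are chr5:90890995-90891244 (plus strand) for Cxcl1, chr5:95956689-95956938 (plus strand) for Cxcl13, chr5:92328080-92328329 (minus strand) for Cxcl9 and chr5:92348890-92349139 (minus strand) for Cxcl10. Capitals mark matches, on either strand, to GGGA, any 4 bases and CC, a general form of the NF-kB site, to GAAA, any 2 bases and GAAA, a form of the interferon-stimulated response element, and to TATAAA, the TATA box.
Cxcl1: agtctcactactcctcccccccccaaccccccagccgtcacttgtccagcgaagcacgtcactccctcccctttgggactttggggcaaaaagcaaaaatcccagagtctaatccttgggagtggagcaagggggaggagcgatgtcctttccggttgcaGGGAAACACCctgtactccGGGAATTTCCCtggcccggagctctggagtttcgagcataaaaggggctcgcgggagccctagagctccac
Cxcl13: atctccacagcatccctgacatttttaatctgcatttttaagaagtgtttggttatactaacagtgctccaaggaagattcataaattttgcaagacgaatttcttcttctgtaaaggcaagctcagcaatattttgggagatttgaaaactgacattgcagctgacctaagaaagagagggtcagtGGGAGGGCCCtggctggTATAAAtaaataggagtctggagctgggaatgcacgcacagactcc
Cxcl9: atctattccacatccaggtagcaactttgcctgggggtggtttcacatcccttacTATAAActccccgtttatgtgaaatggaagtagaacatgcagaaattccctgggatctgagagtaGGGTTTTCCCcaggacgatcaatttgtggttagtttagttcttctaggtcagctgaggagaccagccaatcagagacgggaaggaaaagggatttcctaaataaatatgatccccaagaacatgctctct
Cxcl10: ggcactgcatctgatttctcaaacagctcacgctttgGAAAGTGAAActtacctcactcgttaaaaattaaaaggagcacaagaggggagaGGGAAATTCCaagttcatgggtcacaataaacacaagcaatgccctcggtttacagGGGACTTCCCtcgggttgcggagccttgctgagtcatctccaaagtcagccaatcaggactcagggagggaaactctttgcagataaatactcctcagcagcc
In Cxcl1 the NF-kB form stands at 90 to 81 and at 71 to 62 bases before the start, and the second match overlaps one on the other strand. Cxcl10 holds it in 2 places, GGGACTTCCC matching on both strands, and alone of these 4 it holds the interferon form, as GAAAGTGAAA at 213 to 204 bases before the start. Of the 62 members, 47 had a RefSeq promoter entry under their symbol. The NF-kB form was found in 19 of those 47 and in 17.6% of all 32851 promoters in windows of the same length. The interferon form was found in 3 of the 47 members and in 2.98% of all promoters, and TATAAA in 15 of the 47 and in 12.4%. A member was counted if any of its entries matched, whereas the percentages of all promoters are per entry, so the shares are not strictly alike. A match is a description of letters and not a site of binding.

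Low counts kept 31 of the 62 members out of the test. Of these 31, 7 had no read in any liver, namely Cxcl3, Cxcl15, Ccl21b, Ccl21d, Ccl27b, Ccr6 and Cxcr1. A count of 0 allows up to 0.206 and 0.150 CPM in the baicalein livers and 0.176 and 0.219 CPM in the saline livers (3 counts, counting error only). Of the 31 tested members, 28 reached the filter level, 10 counts at the median library size, in all 4 livers. Cxcr5 and Ackr1 reached it in both baicalein livers and not in both saline livers, and Ccl11 in 1 liver of each group.

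Among the 31 tested members, 4 were higher in baicalein livers, Cxcl1, Ccl6 and Cxcl13 among them, and 0 were lower, at an adjusted p below 0.05 (edgeR quasi-likelihood test, Benjamini-Hochberg adjustment over all tested genes). Of all 12657 tested genes, 15.5% were called, 7.65% higher and 7.9% lower, against 12.9% of the tested members called higher. DESeq2 also called 0 of these tested members lower, and at an unadjusted p below 0.05 in edgeR 0 of them were lower. Members left out of the test are not in these counts, and Cxcl2 among them leaned lower, as given below. An unadjusted p below 0.05 was found for 9 members, 29.0% of those tested, against 29.4% of all genes, so small p-values were about as frequent among the members as elsewhere. A positive log2 fold change was found in 25 members, or 80.6%, against 51.2% of all genes. The median log2 fold change of the tested members was 0.42, against 0.01 over all tested genes. Both baicalein livers lay above both saline livers in 13 members, or 41.9%, against 29.7% of all genes, and below them in 4 members, or 12.9%, against 29.5%. In whole tissue, fewer cells of a type and less RNA per cell cannot be told apart.

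**Figure D1:**
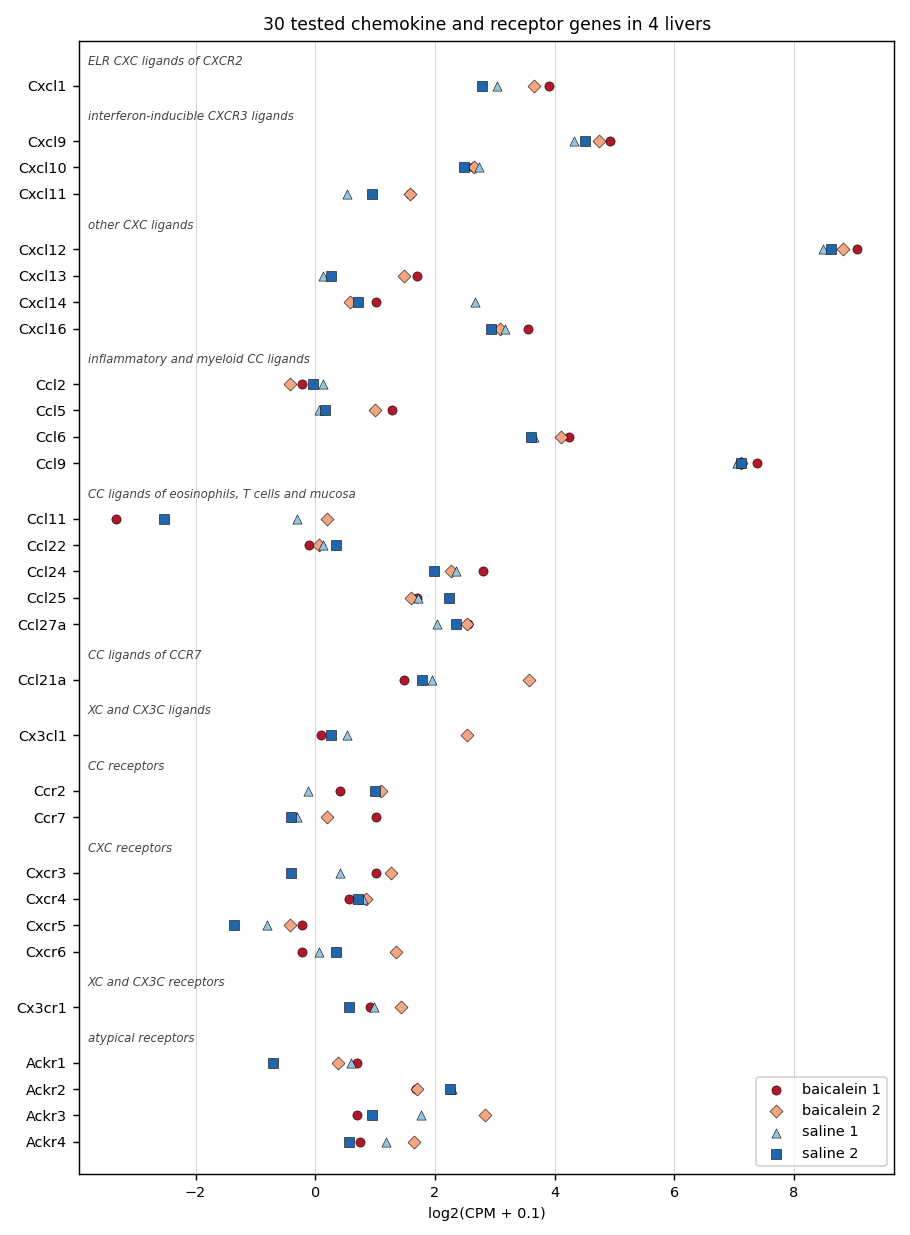
Level of 30 of the 31 tested members in each of the 4 livers, as log2(CPM + 0.1), grouped by role, with 1 point per liver (baicalein in red and orange, saline in blue). Cxcl12 and Ccl9 stand above all others, and Ccl21a, Cx3cl1 and Cxcr6 have baicalein 2 apart from the other 3 livers.

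A few ligands held most of the chemokine reads. Per length, in FPKM (reads divided by the length of the gene and the depth of the library, as the authors deposited them), Cxcl12 stood at 64.2 and 58.9 FPKM with baicalein and 42.2 and 47.3 FPKM with saline. Ccl9 followed at 53.6 and 48.9 FPKM with baicalein and 41.7 and 44.4 FPKM with saline. Behind them in mean FPKM over the 4 livers came Ccl6 (8.44), Cxcl9 (8.25), Ccl21a (6.37) and Cxcl1 (5.67). Cxcl12 and Ccl9 together held 82.1% (95% Wilson interval 81.4 to 82.8) and 78.7% (78.1 to 79.4) of the reads of all 62 members in baicalein livers 1 and 2. In saline livers 1 and 2 their share was 80.8% (80.0 to 81.6) and 83.3% (82.5 to 84.0), where the intervals cover counting error only. The groups overlapped in that share. All members summed to 851 and 748 CPM with baicalein and 607 and 638 CPM with saline, and to 152 and 159 CPM with baicalein and 116 and 107 CPM with saline without Cxcl12 and Ccl9. Ligands summed to 813 and 705 CPM with baicalein and 579 and 613 CPM with saline and receptors to 37.4 and 42.8 CPM with baicalein and 28.0 and 25.4 CPM with saline. In each of these sums both baicalein livers lay above both saline livers.

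**Figure D2:**
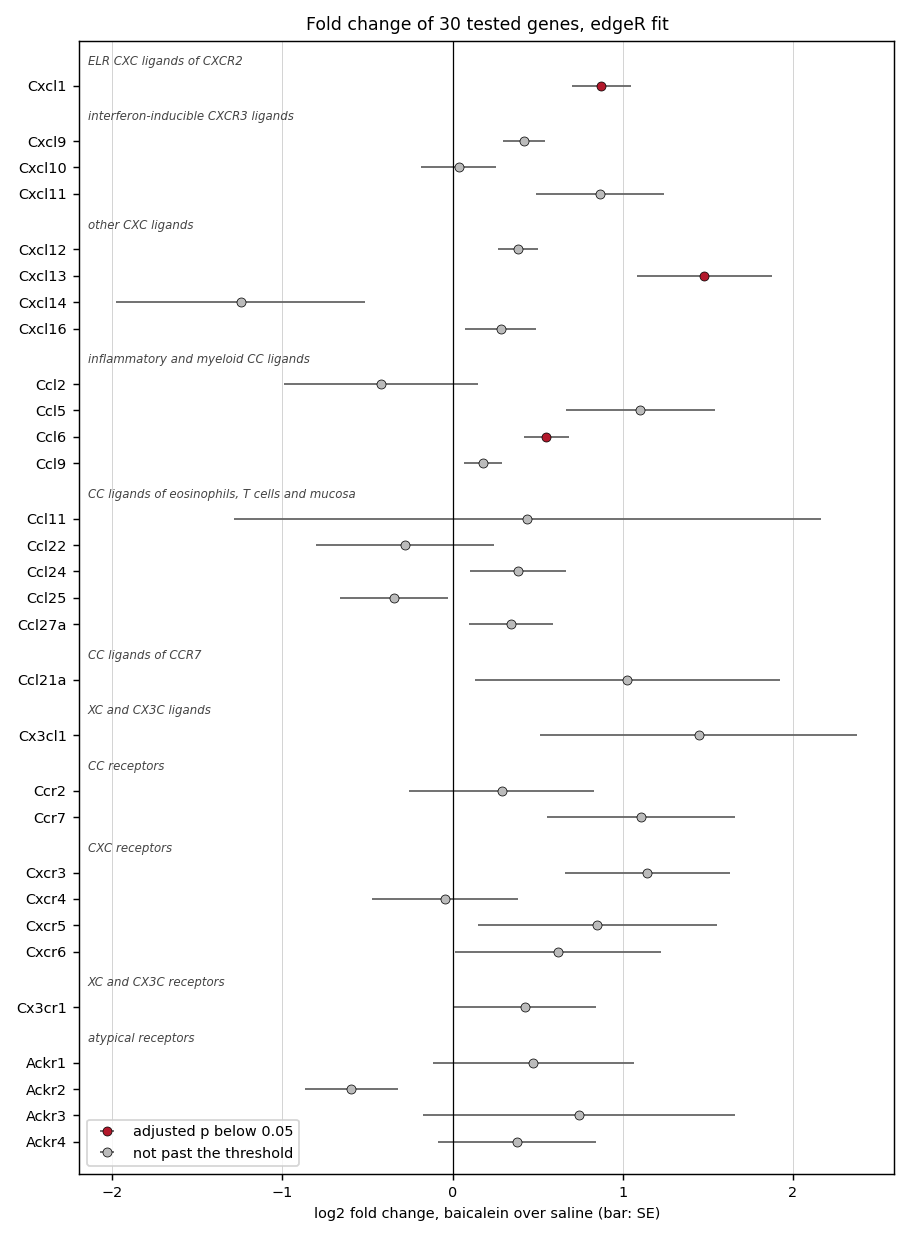
Log2 fold change of baicalein over saline for 30 of the 31 tested members, grouped by role, with the standard error as a bar, from the edgeR fit. Members past the threshold (red) lie between 0.55 and 1.48, and the others (grey) between -1.24 and 1.45.

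Among the members, ligands of Cxcr2 were represented by 1 tested gene. Ppbp, a platelet CXC chemokine gene outside the naming rule, was called lower and is given below. Cxcl1 (ENSMUSG00000029380, mm10 chromosome 5, 90891241 to 90893115, plus strand) encodes a CXC ligand that acts on Cxcr2 of neutrophils. It had 216 and 251 counts with baicalein and 138 and 93 counts with saline, or 14.9 and 12.5 CPM with baicalein and 8.11 and 6.78 CPM with saline. Both baicalein livers lay above both saline livers. The means were 13.7 ± 1.65 CPM with baicalein and 7.45 ± 0.940 CPM with saline (SD, n = 2 each). The log2 fold change was 0.87 (SE 0.17, edgeR adjusted p = 0.0111). The call was lost without saline 2 (edgeR adjusted p = 0.0676) and without baicalein 1 (0.113).

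Cxcl2, a ligand of the same receptor, had 0 and 3 counts with baicalein and 21 and 5 counts with saline and was not tested. Its reads were mostly in saline 1, whereas those of Cxcl1 were higher in baicalein livers, and with no filter on low counts its edgeR adjusted p was 0.105. Cxcl5 had 1 to 4 counts per liver, and Cxcr2 itself had 5 and 4 counts with baicalein and 4 and 3 counts with saline. The 8 neutrophil markers summed to 19.5 and 13.3 CPM with baicalein and 9.76 and 9.92 CPM with saline. Of the 5 tested neutrophil markers, Ltf and Lcn2, which encode granule proteins, rose, Ltf having reached the filter level in the baicalein livers alone. The other tested markers did not pass: S100a8 and S100a9 overlapped between groups (log2 fold changes 0.25 and 0.05), and Retnlg was lower in both baicalein livers than in both saline livers (-0.89, edgeR adjusted p = 0.368).

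None of the interferon-inducible ligands Cxcl9, Cxcl10 and Cxcl11, which attract T cells and NK cells through Cxcr3, passed. Cxcl9 was at 30.3 and 26.6 CPM with baicalein and 19.9 and 22.5 CPM with saline, so the groups did not overlap. It lay just outside the threshold (log2 fold change 0.42, SE 0.12, edgeR adjusted p = 0.0547) and just inside it with no filter on low counts (0.0481). Cxcl10 was at 6.12 and 6.19 CPM with baicalein and 6.53 and 5.47 CPM with saline, with both baicalein livers inside the range of the saline livers (log2 fold change 0.04, SE 0.22, edgeR adjusted p = 0.936). Cxcl11 was at 2.89 and 2.89 CPM with baicalein and 1.35 and 1.82 CPM with saline (log2 fold change 0.87, SE 0.38, edgeR adjusted p = 0.167). Its baicalein livers were above its saline livers. Cxcl10 and Cxcl11 overlap Art3 on the other strand, and 13 of the tested members overlap another gene in GENCODE M21. The sources used here do not say whether the counting used strand, so reads of overlapping genes cannot be told apart.

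Cxcr3, the receptor of these 3 ligands, was at 1.93 and 2.30 CPM with baicalein and 1.23 and 0.656 CPM with saline, with no overlap of the groups (log2 fold change 1.14, SE 0.48, edgeR adjusted p = 0.156). The 9 T and NK cell markers summed to 14.7 and 13.2 CPM with baicalein and 8.17 and 8.02 CPM with saline. Gzma, a granzyme gene, was the 1 of 7 tested markers that rose, with 43 and 37 counts with baicalein and 11 and 8 counts with saline. The other tested markers did not pass and did not all lean the same way. Cd3e, Cd3g, Cd8a and Nkg7 had positive log2 fold changes. Cd4 was lower in both baicalein livers than in both saline livers (log2 fold change -0.16), and Ncr1 overlapped between groups (-0.19). The part of these cells in the Cxcr3 and Ccl5 values was not tested. Of 8 tested interferon signalling genes (median log2 fold change 0.32), Irf1 (log2 fold change 0.72, edgeR adjusted p = 0.00103) and Irf8 (0.70, 0.00741), both transcription factor genes, rose. Ifngr2 (-0.51, 0.0198), which encodes a subunit of the interferon gamma receptor, fell.

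Of the other CXC ligands, Cxcl13 rose. Cxcl13 (ENSMUSG00000023078, mm10 chromosome 5, 95956951 to 95961068, plus strand) encodes the B cell attractant that acts on Cxcr5. It had 46 and 54 counts with baicalein and 17 and 15 counts with saline, or 3.16 and 2.69 CPM with baicalein and 0.999 and 1.09 CPM with saline. The lower baicalein liver stood well above the higher saline liver. The means were 2.93 ± 0.332 CPM with baicalein and 1.05 ± 0.0669 CPM with saline (SD, n = 2 each). The log2 fold change was 1.48 (SE 0.40, edgeR adjusted p = 0.0377). Leaving out any 1 liver ended the call (edgeR adjusted p from 0.124 to 0.1998), and DESeq2 did not make it (adjusted p = 0.112).

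Cxcr5, its receptor on B cells, was at 0.756 and 0.649 CPM with baicalein and 0.470 and 0.292 CPM with saline (log2 fold change 0.85, SE 0.70, edgeR adjusted p = 0.475). The 6 B and plasma cell markers summed to 17.4 and 15.9 CPM with baicalein and 6.11 and 5.91 CPM with saline. Jchain, the joining chain gene of plasma cells, was the 1 of 5 tested markers that rose, at 6.95 and 5.84 CPM with baicalein and 0.941 and 0.656 CPM with saline. The part of these cells in the Cxcl13 value was not tested.

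Cxcl12 encodes the ligand of Cxcr4 that holds stem cells and lymphocytes in their niches. It was at 533 and 449.7 CPM with baicalein and 359 and 394 CPM with saline. The groups did not overlap, but it did not pass (log2 fold change 0.38, SE 0.12, edgeR adjusted p = 0.0604). It passed with DESeq2 (adjusted p = 0.0163) and without baicalein 2 (edgeR adjusted p = 0.0240). It failed without saline 1 (0.420), without saline 2 (0.288) and without baicalein 1 (0.190), all by edgeR adjusted p. Cxcr4 was at 1.38 and 1.70 CPM with baicalein and 1.65 and 1.53 CPM with saline, with overlap (log2 fold change -0.05, SE 0.43, edgeR adjusted p = 0.960). Ackr3, the atypical receptor that scavenges Cxcl12, was at 1.51 and 7.04 CPM with baicalein and 3.29 and 1.82 CPM with saline. Baicalein 2 was the highest liver for Ackr3 and baicalein 1 the lowest (log2 fold change 0.74, SE 0.92, edgeR adjusted p = 0.679).

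Cxcl14, an epithelial chemokine, was at 1.93 and 1.40 CPM with baicalein and 6.29 and 1.53 CPM with saline. Saline 1 alone was high (log2 fold change -1.24, SE 0.73, edgeR adjusted p = 0.347). Without saline 2 it was called lower (log2 fold change -1.93, edgeR adjusted p = 0.0267), and without saline 1 its log2 fold change was 0.11. Cxcl16, a membrane-bound ligand of Cxcr6, was at 11.7 and 8.38 CPM with baicalein and 8.88 and 7.59 CPM with saline (log2 fold change 0.28, SE 0.21, edgeR adjusted p = 0.420). Cxcr6, found on liver T and NKT cells, was at 0.756 and 2.44 CPM with baicalein and 0.941 and 1.17 CPM with saline, with baicalein 2 alone high (log2 fold change 0.62, SE 0.61, edgeR adjusted p = 0.556). Cxcl17 had at most 2 counts in a liver.

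Among the inflammatory and myeloid CC ligands, Ccl6 rose. Ccl6 (ENSMUSG00000018927, mm10 chromosome 11, 83587882 to 83593087, minus strand) encodes a chemokine of mouse myeloid cells. It had 274 and 342 counts with baicalein and 212 and 165 counts with saline, or 18.8 and 17.1 CPM with baicalein and 12.5 and 12.0 CPM with saline. Livers of the same group were close and the groups did not overlap. The means were 18.0 ± 1.26 CPM with baicalein and 12.2 ± 0.303 CPM with saline (SD, n = 2 each). The log2 fold change was 0.55 (SE 0.13, edgeR adjusted p = 0.0238). Leaving out any 1 liver ended the call (edgeR adjusted p from 0.0776 to 0.157), as did DESeq2 (adjusted p = 0.122). The gene overlaps E230016K23Rik on the other strand. Ccl9, also a myeloid chemokine, was at 166 and 139 CPM with baicalein and 132 and 138 CPM with saline and did not pass (log2 fold change 0.18, SE 0.11, edgeR adjusted p = 0.337).

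Ccl5, a product of T and NK cells, was at 2.34 and 1.90 CPM with baicalein and 0.941 and 1.02 CPM with saline. Both baicalein livers were above both saline livers, without a call (log2 fold change 1.10, SE 0.44, edgeR adjusted p = 0.133). Ccl2, which draws monocytes through Ccr2, had 11 and 13 counts with baicalein and 17 and 12 counts with saline. It was low in every liver, at 0.756 and 0.649 CPM with baicalein and 0.999 and 0.875 CPM with saline. Both baicalein livers were below both saline livers, without a call (log2 fold change -0.42, SE 0.57, edgeR adjusted p = 0.685). Ccl3, Ccl4, Ccl8 and Ccl12 had at most 5 counts in a liver, and Ccl7, another ligand of Ccr2, had 3 and 10 counts with baicalein and 11 and 0 counts with saline.

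Of the CC ligands of eosinophils, T cells and mucosal surfaces, 5 were tested and 0 passed, with 0 at an unadjusted p below 0.05 in edgeR and 0 called by DESeq2. Ccl24, an eosinophil attractant, was at 6.88 and 4.74 CPM with baicalein and 4.997 and 3.87 CPM with saline (log2 fold change 0.39, SE 0.28, edgeR adjusted p = 0.417). Ccl27a, a ligand for skin-homing T cells, was at 5.78 and 5.69 CPM with baicalein and 3.997 and 5.03 CPM with saline (log2 fold change 0.35, SE 0.25, edgeR adjusted p = 0.404). It overlaps Il11ra1 on the other strand and has a near-identical copy in Ccl27b, so its value is uncertain. Ccl22, a ligand of Ccr4, had a log2 fold change of -0.28 (SE 0.52). Ccl25, a ligand of Ccr9, had one of -0.34 (SE 0.32). For Ccl22 and for Ccl25 both baicalein livers were below both saline livers, without a call. Ccl11, the eosinophil attractant eotaxin, had 0 and 21 counts with baicalein and 12 and 1 counts with saline. Its high livers, baicalein 2 and saline 1, were the livers rich in muscle transcripts, and the part of that tissue was not tested. Ccl28 had 0 and 14 counts with baicalein and 2 and 3 counts with saline, and Ccl20, the ligand of Ccr6, had 0 and 7 counts with baicalein and 0 and 0 counts with saline. Both had most of their reads in baicalein 2. Ccl17 had at most 5 counts in a liver, and Ccl1 and Ccl26 at most 1.

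Ccl21a and Cx3cl1 were high in baicalein 2 alone. Ccl21a, a Ccr7 ligand that guides dendritic cells and T cells into lymphoid tissue, was at 2.68 and 11.8 CPM with baicalein and 3.76 and 3.35 CPM with saline. Baicalein 1 was the lowest of the 4 livers and baicalein 2 the highest (log2 fold change 1.03, SE 0.90, edgeR adjusted p = 0.562). Without baicalein 1 the gene was called higher (log2 fold change 1.71, edgeR adjusted p = 0.0169), and without baicalein 2 the log2 fold change was -0.40. Near-identical copies (Ccl21b, Ccl21d) make its value uncertain. Ccl19, the other Ccr7 ligand, had 13 and 10 counts with baicalein and 3 and 2 counts with saline and was not tested, with an edgeR adjusted p of 0.249 when low counts were not filtered. Ccr7 was at 1.93 and 1.05 CPM with baicalein and 0.705 and 0.656 CPM with saline (log2 fold change 1.11, SE 0.55, edgeR adjusted p = 0.226).

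Cx3cl1 encodes fractalkine, a membrane-bound ligand of endothelium and epithelium. It was at 0.963 and 5.69 CPM with baicalein and 1.35 and 1.09 CPM with saline. Here too baicalein 1 was lowest and baicalein 2 highest (log2 fold change 1.45, SE 0.93, edgeR adjusted p = 0.404). Without baicalein 1 it was called higher (log2 fold change 2.19, edgeR adjusted p = 0.0278), and without baicalein 2 the log2 fold change was -0.34. The bile duct markers Krt19 (1.58 and 72.2 CPM with baicalein and 2.29 and 1.24 CPM with saline) and Epcam (2.20 and 19.4 CPM with baicalein and 4.17 and 2.55 CPM with saline) were high in the same liver. Sox9, another marker on that list, fell (4.40 and 6.24 CPM with baicalein and 13.2 and 10.6 CPM with saline, edgeR adjusted p = 0.00912). The part of bile duct cells in the Ccl21a and Cx3cl1 values was not tested. Cx3cr1, the fractalkine receptor of monocytes and macrophages, was at 1.79 and 2.59 CPM with baicalein and 1.88 and 1.39 CPM with saline (log2 fold change 0.42, SE 0.42, edgeR adjusted p = 0.562). Xcl1 had at most 2 counts in a liver, and its receptor Xcr1, carried by cross-presenting dendritic cells, had 9 and 18 counts with baicalein and 6 and 8 counts with saline.

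**Figure D3:**
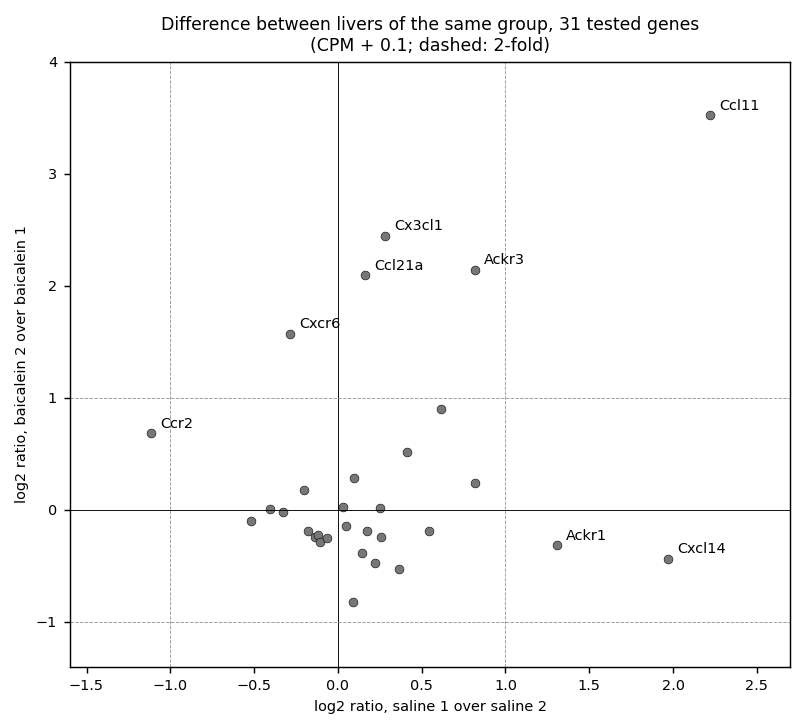
Log2 ratio between livers of the same group for the 31 tested members, saline 1 over saline 2 on the horizontal axis and baicalein 2 over baicalein 1 on the vertical axis, after adding 0.1 CPM. Ccl11, Cx3cl1, Ackr3, Ccl21a and Cxcr6 lie above the 2-fold line of the baicalein livers. Ccl11, Cxcl14 and Ackr1 lie beyond the 2-fold line on the saline 1 side, and Ccr2 beyond the one on the saline 2 side.

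Livers of the same group differed by more than 2-fold for some members. Baicalein 2 exceeded baicalein 1 in this way in 5 members and the reverse held in 0. Saline 1 exceeded saline 2 in 3 members, and saline 2 exceeded saline 1 in 1, Ccr2. The ratio of baicalein 2 to baicalein 1 was 5.45 for Cx3cl1, 4.42 for Ackr3, 4.27 for Ccl21a and 2.97 for Cxcr6. Cxcl14 had a ratio of saline 1 to saline 2 of 3.92. Cxcl1, Ccl6 and Cxcl13 did not pass 2-fold within a group.

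Livers both low or both high in muscle transcripts could be set side by side, baicalein 1 over saline 2 (low) and baicalein 2 over saline 1 (high). The second pair was not equal in muscle content, with marker sums of 1470.5 CPM in baicalein 2 and 4854 CPM in saline 1. In these pairs 15 of the 31 members were higher in both and 4 were lower in both. These include the 13 members above and the 4 below without overlap, whose direction in any such pair was fixed beforehand. No such count was taken over all tested genes, so none is set beside it. Cxcl13 was higher by 2.73-fold and 2.54-fold in these pairs. The fold was 2.17-fold and 1.54-fold for Cxcl1 and 1.56-fold and 1.37-fold for Ccl6. The groups of these 3 genes do not overlap, so their direction in any such pair was fixed beforehand and the pairs give only the size of the difference. Each pair holds 1 liver a group and so allows no test.

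Ccr2, the receptor that brings monocytes out of bone marrow, was at 1.24 and 2.05 CPM with baicalein and 0.823 and 1.90 CPM with saline. Its groups overlapped (log2 fold change 0.29, SE 0.54, edgeR adjusted p = 0.784). The sources used here do not say how reads shared between paralogous receptors were counted, so its value carries that uncertainty. Untested receptors had at most 18 counts in a liver.

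All 4 atypical receptors were tested and 0 passed, with 0 at an unadjusted p below 0.05 in edgeR and 0 called by DESeq2. Ackr2, which degrades inflammatory CC ligands, was at 3.09 and 3.14 CPM with baicalein and 4.76 and 4.67 CPM with saline. Both baicalein livers were below both saline livers, without a call (log2 fold change -0.59, SE 0.27, edgeR adjusted p = 0.187). Ackr1, which carries chemokines across venules, was at 1.51 and 1.20 CPM with baicalein and 1.41 and 0.511 CPM with saline (log2 fold change 0.47, SE 0.59, edgeR adjusted p = 0.655). Ackr4, which clears the ligands of Ccr7, was at 1.58 and 3.04 CPM with baicalein and 2.18 and 1.39 CPM with saline (log2 fold change 0.38, SE 0.46, edgeR adjusted p = 0.648). Both of these overlapped between groups.

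**Figure D4:**
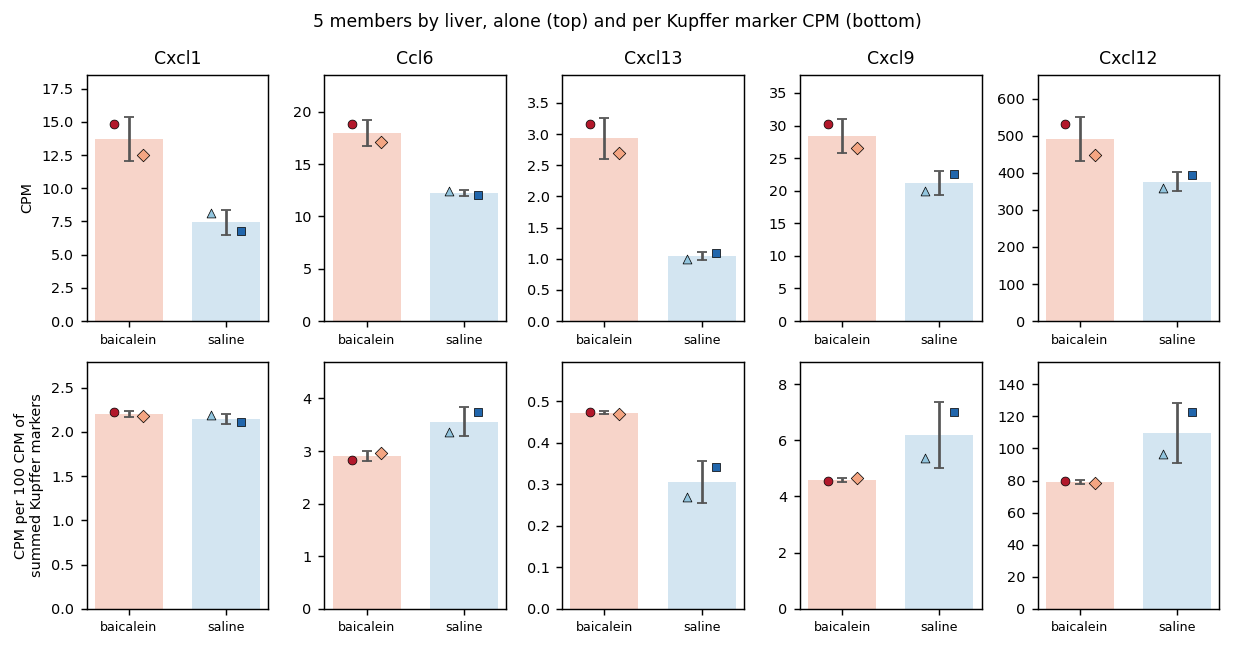
CPM of 5 members in each liver (top) and the same CPM per 100 CPM of the 6 summed Kupffer cell markers (bottom), with points for livers, bars for means and error bars for SD (n = 2 each). Cxcl1 per 100 marker CPM was 2.23 and 2.18 with baicalein and 2.19 and 2.11 with saline, and Ccl6, Cxcl9 and Cxcl12 were lower in baicalein than in saline livers on that scale.

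Kupffer cell markers, which stand for the macrophages resident in liver, moved with Cxcl1, Ccl6 and Cxcl13. All 6 were called higher, Marco (log2 fold change 1.73), Cd5l (1.07), Timd4 (0.99) and Vsig4 (1.11) with the smallest p-values. They summed to 666 and 574 CPM with baicalein and 371 and 321 CPM with saline. Per 100 CPM of these markers, Cxcl13 stood at 0.475 and 0.470 with baicalein and 0.269 and 0.341 with saline. On that scale both baicalein livers were still above both saline livers for Cxcl13. Cxcl1 stood at 2.23 and 2.18 with baicalein and 2.19 and 2.11 with saline, so its livers lay close together. Ccl6 stood at 2.83 and 2.97 with baicalein and 3.36 and 3.75 with saline, the opposite order to its CPM. The same turn on the Kupffer scale was seen for Cxcl9 (4.54 and 4.64 with baicalein and 5.37 and 7.02 with saline) and Cxcl12 (79.9 and 78.4 with baicalein and 96.6 and 123 with saline). Per 100 CPM of the sinusoidal endothelial markers, which rose as well, the groups overlapped for Ccl6 (3.36 and 3.01 with baicalein and 3.32 and 3.68 with saline) and Cxcl9 (5.40 and 4.69 with baicalein and 5.31 and 6.90 with saline), so neither turned round. Cxcl12 stood at 95.1 and 79.3 with baicalein and 95.6 and 121 with saline on that scale. Cxcl1 (2.65 and 2.21 with baicalein and 2.16 and 2.08 with saline) and Cxcl13 (0.565 and 0.475 with baicalein and 0.266 and 0.335 with saline) had both baicalein livers above both saline livers. These ratios are descriptions without a test.

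Some markers of other cells rose as well. All 8 markers of sinusoidal endothelium rose, with sums of 560.2 and 567 CPM with baicalein and 375 and 327 CPM with saline. Of the 6 stellate cell markers 4 rose (sums of 245 and 288 CPM with baicalein and 230.5 and 79.8 CPM with saline). Des, a marker on that list that did not pass, was high in the muscle-rich livers (6.26 and 101 CPM with baicalein and 151 and 2.63 CPM with saline) and made up much of the sum in those 2 livers. Of the 6 monocyte markers Lyz2 (129 and 124 CPM with baicalein and 67.4 and 71.5 CPM with saline) and Plac8 rose. The monocyte sums (3425 and 2911 CPM with baicalein and 2234 and 2488 CPM with saline) were almost wholly Fn1 (3273 and 2753 CPM with baicalein and 2155 and 2405 CPM with saline), which did not pass. Of 5 tested dendritic cell markers 0 passed with edgeR or DESeq2, with 1 higher at an unadjusted edgeR p below 0.05 (sums of 14.5 and 14.2 CPM with baicalein and 11.7 and 12.1 CPM with saline). The part of any of these cells in the chemokine values was not tested.

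Genes that act around the chemokine system were read from 6 lists. Over all 12657 tested genes, 7.65% were called higher and 7.9% lower, the shares to set beside the count of any list or marker set. At such a share, 0 calls lower in a short list says little about the list. Among 21 tested genes of receptor signalling 4 rose and 0 fell (median log2 fold change 0.16), with 2 lower at an unadjusted edgeR p below 0.05 and 0 lower by DESeq2. The 4 were Pik3cg (log2 fold change 1.91, edgeR adjusted p = 0.0188), a kinase gene of chemokine receptor signalling, Gng2 (1.55, 0.0158), a G protein subunit gene, Arrb1 (1.01, 0.00124), an arrestin gene, and Rgs2 (0.89, 0.0176), whose product shortens G protein signals. Among 14 genes of leukocyte migration 5 rose and 0 fell (median 0.56), with 0 lower at an unadjusted edgeR p below 0.05 or by DESeq2. They included the integrin genes Itgal (0.90, 0.00171) and Itgb2 (0.63, 0.00964), Vav1 (1.11, 0.00555), which encodes an activator of Rac, and Rac2 (0.65, 0.0174) itself.

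Inducers and relatives of chemokines had calls in both directions. Among 14 tested NF-kB and cytokine genes (median log2 fold change 0.23), Nfkbiz (0.72, edgeR adjusted p = 0.0221), a nuclear regulator of NF-kB, rose and Rela (-0.41, 0.0254), an NF-kB subunit gene, fell. Of 12 relatives outside the naming rule (median 0.21), Cmklr1 (1.04, 0.0112), the chemerin receptor gene, rose, and Cmtm6 (-0.97, 0.000456) fell. Ppbp, a platelet CXC chemokine gene, had 5 and 5 counts with baicalein and 24 and 19 counts with saline and was called lower (log2 fold change -2.22, SE 0.61, edgeR adjusted p = 0.0401). It reached the filter level in the saline livers alone, so its call depended on the group in which it was high. Of 10 tested genes of chemokine cleavage and retention (median 0.06), 0 passed with edgeR or DESeq2, and 0 had an unadjusted edgeR p below 0.05.

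**Figure D5:**
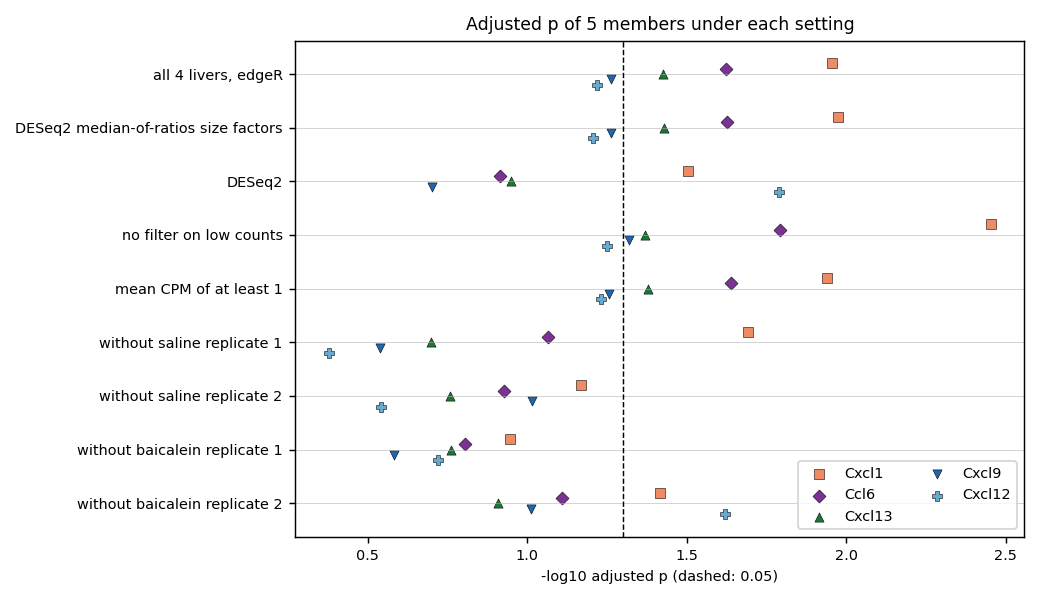
Adjusted p of 5 members as -log10, with all 4 livers and under the other settings drawn, where points right of the dashed line pass 0.05. Cxcl1 fails without saline 2 and without baicalein 1, and Ccl6 and Cxcl13 fail with DESeq2 and whenever a liver is left out.

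The calls differed in how many settings they passed. In the plot of adjusted p by setting, Cxcl1 failed in 2 settings. Ccl6 and Cxcl13 passed in each edgeR setting drawn with all 4 livers and in none with a liver left out. A fit without a liver has fewer degrees of freedom, and with 2 livers against 2 an exact permutation test of a single gene cannot give a two-sided p below 0.333.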

How the data were processed

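RNA sequencing libraries of 4 livers were compared, 2 given baicalein and 2 given saline, grouped by the treatment labels. The authors deposited 1 table with a whole-number count and an FPKM value per gene and liver, per the file headers. The genome build was mm10, per the submitters' processing notes, while no source used here names the aligner, the counting tool or the use of strand. The deposited FPKM of the members equalled count over gene length and library total within 0.00415%. The table names no build for its positions, so mm10 positions were taken from GENCODE M21 by gene ID.

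Counts of 12657 genes with enough reads (filterByExpr, minimum 10) entered a robust two-sided quasi-likelihood test without covariates (edgeR 4.0.16, R 4.3.3, TMM scaling), with Benjamini-Hochberg adjustment over those genes and a threshold of 0.05. The standard error is the log2 fold change over the root of the F statistic. Libraries held 13976440 to 18731616 counts, so that 3 counts equal 0.150 to 0.219 CPM in a library. Alternatives were DESeq2 1.42.0, its size factors, other filters, a replicate block and leaving out each liver.

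The members and gene lists were chosen with earlier results of these data known. Genes were named by rule, except 1 member that is counted in the totals and not reported here: every member past the threshold, in each role the 2 tested members of highest FPKM and the one of smallest p that did not pass, and in each other list up to 4 genes of smallest p that passed. Other members, Krt19, Epcam, Alb, S100a8, S100a9, Retnlg, Des and Fn1 were named after their values were seen. So were Cd3e, Cd3g, Cd8a, Nkg7, Cd4 and Ncr1.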

Additional observations from a re-analysis of the deposited data

How the results depend on the processing

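The count of members called higher was 4 with all livers, 2 with a replicate block and from 1 to 3 when a liver was left out, newly called members included. Of the 4 themselves, from 0 (without baicalein 1) to 2 were still called with a liver left out. The count of members called lower was 0 with all livers and from 0 to 1 when a liver was left out, the 1 being Cxcl14 without saline 2. Over all genes, 968 were higher with all 4 livers, 531 with the replicate block and from 521 to 665 with a liver left out. For genes called lower these counts were 1000 with all 4 livers, 601 with the block and from 535 to 663. The block dropped Ccl6 (edgeR adjusted p = 0.0684) and Cxcl13 (0.123). The sources used here do not say whether same-numbered livers were paired. Saline 1 and baicalein 2 were both rich in muscle transcripts, so a correlation between livers cannot show whether they were. Deviations of same-numbered livers from their group means correlated at -0.771. With 2 livers per group the crosswise value, 0.771, is the same number with its sign turned and adds nothing to it. A crosswise block, chosen after seeing the data, gave 7 members higher, and 1809 higher and 1689 lower genes. With DESeq2 size factors 4 members were higher, with a mean CPM of at least 1 also 4, with no filter 5 (Cxcl9 added) and with DESeq2 3 (Cxcl1 kept and Cxcl12 added among them), and none of these made a member lower. Causes of these changes were not tested, though a left-out liver leaves fewer samples. Low counts, at most 21 in a liver, left 31 members untested.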
